A study of Mus musculus with 16 samples.

Results

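Genes through which cells take up and handle lipid under the control of the peroxisome proliferator-activated receptors (PPARs) were examined in mouse dendritic cells exposed to a saturated fatty acid and a TLR7 agonist. The set was chosen by name and holds 10 genes: the receptors Pparg and Ppard, the lipase Lpl and its inhibitor Angptl4, the fatty acid receptor Cd36, the fatty acid carriers Fabp4 and Fabp5, the fatty acid activating enzyme Acsl1, the pyruvate dehydrogenase kinase Pdk4 and the mitochondrial carrier Ucp2. Of these, 8 had a probe set that the platform annotation assigned to that gene alone, among 22180 genes in all, and Acsl1 and Ucp2 were not analysed here. Where a gene had several such probe sets, the brightest on average was used. The 10 genes, and the gene lists used below, were chosen with earlier results of these data known.

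Bone marrow of male C57/B6 mice was cultured for 10 days with 20 ng/ml of the growth factor GM-CSF, which yields dendritic cells, and the treatments lasted 24 h. The 16 arrays fall into 4 groups of 4. Cells received IMQ together with PA, IMQ alone, PA alone, or a mock treatment, and all 4 groups share the strain, the sex of the donor mice and the GM-CSF culture. From knowledge of the study, PA stands for palmitic acid and IMQ for imiquimod, a synthetic TLR7 agonist. PA was given at 0.5 mM, bound to bovine serum albumin in a molar ratio of 6 to 1, and whether mock and IMQ cells received albumin was not stated in the sources used here. The labels give the IMQ dose as 3 uM in one place and as 3 ug/ml in another. They call the replicates biological without saying whether these came from separate mice or cultures, so the p-values cover the spread among these arrays and no other source. Values are log2 array signals, and since probe sets differ in brightness, levels are compared between groups of arrays and never between genes. Changes were tested with limma in one fit of all 4 groups, and a gene was called where its p, adjusted by Benjamini and Hochberg's method for 22180 genes, was under 0.05. The figure after ± is the standard error of a change unless SD is written.

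PPARs are nuclear receptors that are activated by fatty acids and their derivatives and bind DNA as dimers with a retinoid X receptor. PPARG is known as the regulator of fat cell formation and, in macrophages and dendritic cells, of lipid uptake and storage, while PPARD is present in most tissues and drives genes of fatty acid oxidation. The direct repeat of the hexamer AGGTCA with 1 base between its copies is the textbook PPAR element.

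RefSeq promoter windows of the GRCm38.p6 assembly were at hand for 6 of the 10 genes (Cd36, Pparg, Ppard, Pdk4, Acsl1 and Ucp2), and the 250 bases before each start site were searched on both strands. Those of Cd36 and Pparg lie inside the annotated genes (chr5:17781690-17888959 and chr6:115360879-115490404), so the bases before the outermost end of either gene were not searched. The windows below belong to the receptor Pparg, to Cd36, which rose with PA, and to Plin2, a lipid droplet coat gene outside the set that also rose with PA. They are printed 5′ to 3′ on the strand of the gene, with AGGTCA or its reverse complement in capitals.
Cd36, minus strand, at chr5:17835897-17836146: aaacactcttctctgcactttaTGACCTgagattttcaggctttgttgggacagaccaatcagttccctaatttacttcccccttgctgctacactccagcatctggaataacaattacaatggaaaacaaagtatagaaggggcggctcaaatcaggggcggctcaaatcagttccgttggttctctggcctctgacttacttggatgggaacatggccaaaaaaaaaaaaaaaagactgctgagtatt
Pparg upstream start, plus strand, at chr6:115360894-115361143: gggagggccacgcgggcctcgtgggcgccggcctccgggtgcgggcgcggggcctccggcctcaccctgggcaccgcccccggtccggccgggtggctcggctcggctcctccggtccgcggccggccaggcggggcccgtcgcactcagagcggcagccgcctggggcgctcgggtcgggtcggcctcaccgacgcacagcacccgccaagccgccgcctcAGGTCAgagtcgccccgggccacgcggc
Pparg next start, plus strand, at chr6:115362099-115362348: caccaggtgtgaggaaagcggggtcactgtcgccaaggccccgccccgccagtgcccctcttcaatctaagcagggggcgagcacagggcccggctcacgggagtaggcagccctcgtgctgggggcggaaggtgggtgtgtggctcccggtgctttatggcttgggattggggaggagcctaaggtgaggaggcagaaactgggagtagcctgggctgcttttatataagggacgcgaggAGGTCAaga
Plin2, minus strand, at chr4:86670060-86670309: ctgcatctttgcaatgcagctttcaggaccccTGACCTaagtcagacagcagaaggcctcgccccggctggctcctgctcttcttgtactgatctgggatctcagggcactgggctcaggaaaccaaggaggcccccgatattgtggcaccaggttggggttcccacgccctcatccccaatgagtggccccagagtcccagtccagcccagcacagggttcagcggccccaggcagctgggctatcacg
The hexamer AGGTCA began 228 bases before a start site of Cd36 and 218 bases before one of Plin2, in both cases on the opposite strand. In Pparg it began 28 bases before one start site and 9 bases before another, on the strand of the gene. It was not found in the remaining window of Pparg or in those of Ppard, Pdk4, Acsl1 and Ucp2. Cpt1a, a gene outside the set that also rose with PA, held it 94 bases before a start site, on the opposite strand. Such a match is common, since 14.0% of the 32851 promoter windows of this length held the hexamer, overlaps with the longer motif included. The whole direct repeat, AGGTCA, any 1 base and AGGTCA again, was found in 0.0335% of all windows and in none of those of the set. A match is only a stretch of letters, and binding was not measured.

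The cells carried markers of the labelled type and of macrophages. Of 10 markers of conventional dendritic cells 9 were measured and none was dim in all groups, where dim means below 4.94, the 95th percentile of the group means of 1443 sensory receptor genes. Their mean level ran from 8.48 to 8.55 over the arrays of IMQ with PA, from 8.44 to 8.51 with IMQ, from 8.41 to 8.48 with PA and from 8.46 to 8.59 in mock cells. Beneath this mean single dendritic cell markers moved both ways. Itgax and H2-Aa were lower, at 9.39 and 10.60 with IMQ, against 11.09 and 11.26 in mock cells. Ccr7 was higher, at 11.21 with IMQ, against 10.19. In mock cells Zbtb46, Flt3 and Batf3 lay nearest the dim level, at 5.47, 5.72 and 6.23. The other measured dendritic cell markers ran from 6.68 (Dpp4) to 12.32 (H2-Ab1) there. Of 11 macrophage markers 10 were measured, and Cd163 was dim throughout. Their mean was 9.04 to 9.09 with IMQ and PA, 9.33 to 9.40 with IMQ, 9.53 to 9.55 with PA and 9.64 to 9.71 in mock cells. Markers of fat cells, the best known site of several genes of the set, averaged 4.61 to 4.67 with IMQ and PA, 4.71 to 4.88 with IMQ, 4.48 to 4.64 with PA and 4.51 to 4.66 in mock cells over the 6 of 8 that were measured, and the defining Adipoq and Lep were dim in every group. The mean of the macrophage markers was thus lower with IMQ than in mock cells, as were most genes of the set, but the markers did not move together. The group means of 7 were lower, among them C1qb at 9.77 with IMQ, against 11.81 in mock cells, and Mertk at 7.65, against 9.73. Adgre1, Fcgr1 and Marco were higher, at 11.64, 10.93 and 9.73 with IMQ, against 10.09, 10.09 and 6.69 in mock cells. The part of these markers in the falls of the set was not tested. In such bulk samples fewer cells of a type and less RNA per cell cannot be told apart.

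Some arrays without IMQ carried inflammatory transcripts. Il6, an inflammatory cytokine, lay between 12.25 and 12.27 with IMQ and PA, and between 11.86 and 12.02 with IMQ alone. It stood at 7.43 and 8.22 in PA arrays 3 and 4 and at 7.57, 7.90 and 7.71 in mock arrays 1, 2 and 3. It was at or below 4.12 in the other PA arrays and at 4.32 in mock array 4. All comparisons were therefore computed again without these 5 arrays, which leaves 2 PA arrays and 1 mock array, with the lone mock array assumed to vary like the other groups.

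**Figure D1:**
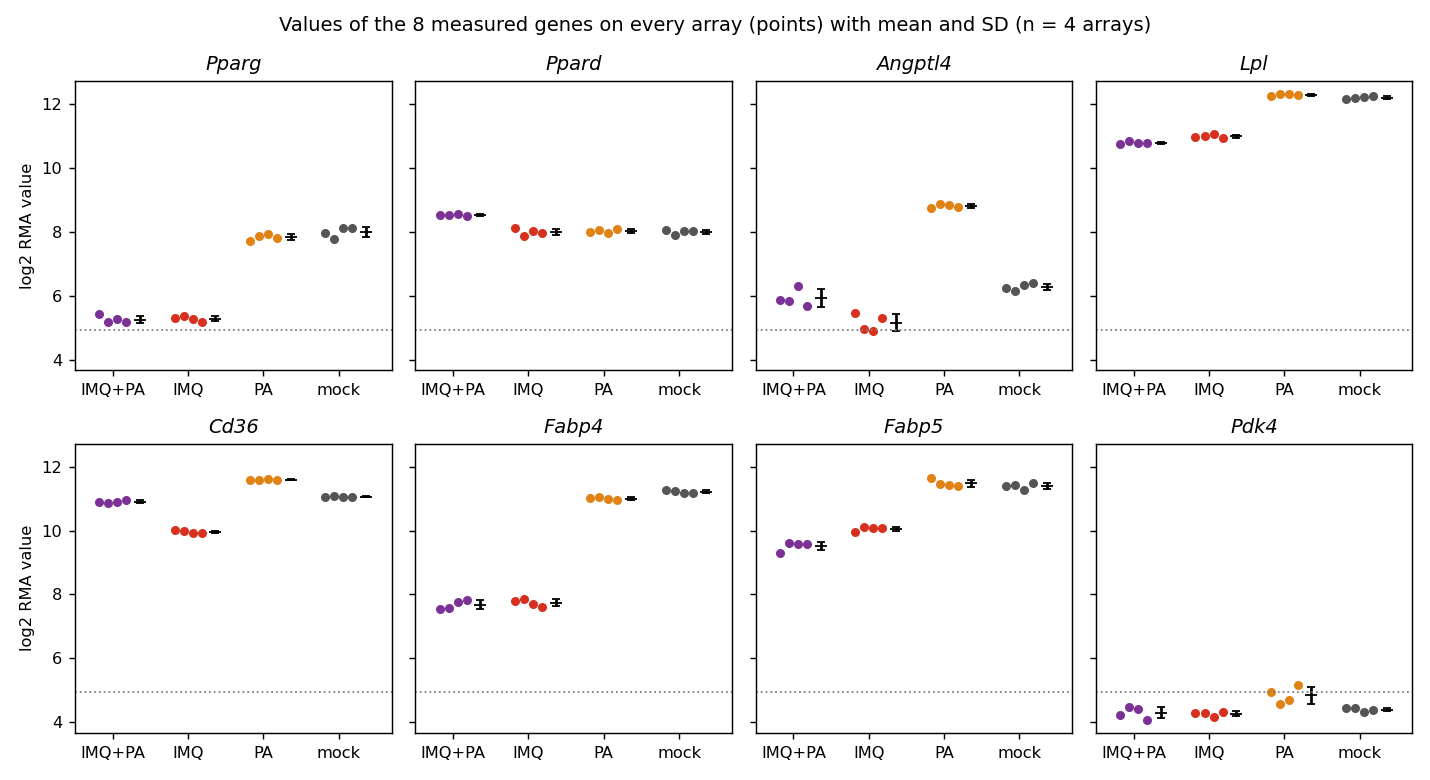
Log2 array signal of the 8 measured genes on each of the 16 arrays, with groups from left to right IMQ with PA, IMQ, PA and mock; points are arrays, and the dotted line is the dim level of 4.94. Fabp4, Fabp5, Lpl and Pparg split into arrays with and without IMQ, Angptl4 stands highest with PA alone, and Ppard stands highest with IMQ and PA.

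PA alone changed few genes of the set. Angptl4, a textbook PPAR target whose secreted product inhibits lipoprotein lipase, was 5.78-fold higher with PA than in mock cells, the highest rise of all 22180 genes. Cd36, which encodes a scavenger receptor that brings long-chain fatty acids into the cell, was 1.44-fold higher and ranked 54 among the rises. The other 6 measured genes, Pparg and Ppard among them, did not pass the test. So 2 of 8 genes were called, both higher, against 1.49% of all genes called in either direction and 1.05% called higher. Without the 5 arrays with high Il6, where 0.0676% of all genes were called, 1 of the 8 was called, Angptl4, and the change of Cd36 was again 0.53. The values of 4 of the 8 did not overlap between the groups, against 9.92% of all genes, and the median change of the 8 was 0.08 on the log2 scale, against 0.01 over all genes.

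IMQ lowered most of the set. It lowered 6 of the 8 genes relative to mock, against 34.8% of all genes called and 17.9% called lower. The same 6 did not overlap between the groups, against 34.2% of all genes. Shares over all genes, here and elsewhere, include 8664 genes that were dim in all groups, whereas 1 of the 8 was dim. With dim genes left out 7491 genes were called with IMQ, nearly as many as the 7727 among all genes. Shares over genes as bright as the set were not computed, and the part of brightness was not tested. Fabp4, a fatty acid carrier known from fat cells and macrophages, was 11.1-fold lower and Pparg 6.59-fold lower. These changes ranked 13 and 37 among all falls with IMQ. The median change of the 8 was -1.16, against 0.01 over all genes. Ppard and Pdk4 did not pass the test. Without the 5 arrays with high Il6 the 6 falls were again called, against 23.6% of all genes called in either direction.

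PA on top of IMQ moved the set in both directions. Cd36, Angptl4 and Ppard were higher with IMQ and PA than with IMQ alone, Fabp5 and Lpl were lower, and Fabp4, Pparg and Pdk4 did not pass the test. These 5 of 8 calls compare with 21.1% of all genes called, 11.6% higher and 9.44% lower, and the same 5 genes did not overlap between the groups, against 23.5% of all genes. The median change was 0.01, against -0.02 over all genes. IMQ on top of PA lowered 7 of the 8 genes and raised 1, Ppard, against 35.3% of all genes called, 18.5% lower and 16.8% higher. Among the falls, that of Pdk4 lay between means of 4.31 with IMQ and PA and 4.84 with PA, both below the dim level. All 8 did not overlap, against 35.7% of all genes, and the median was -1.73, against 0.00. Against mock cells, IMQ with PA lowered 5 genes (Fabp4, Pparg, Fabp5, Lpl and Cd36) and raised Ppard, against 36.5% of all genes called, 18.1% lower and 18.4% higher. The same 6 did not overlap, against 35.3% of all genes, and the median was -0.88, against -0.01. The PA and IMQ comparisons share the mock arrays, and the comparisons of the combined treatment share its arrays, so these counts are not independent of each other.

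The change with PA differed between cells with and without IMQ for 5 of the 8 genes by the interaction term, the difference between the PA change in IMQ-treated cells and that in cells without IMQ. It was positive for Ppard and Cd36 and negative for Angptl4, Fabp5 and Lpl, against 13.6% of all genes called, 6.58% higher and 7.01% lower. Without the 5 arrays with high Il6, the calls for Angptl4, Cd36 and Ppard were kept, with adjusted p of 0.0133, 0.0341 and 0.0235. Those for Fabp5 and Lpl were lost, with interactions of -0.60 and -0.23 and adjusted p of 0.0543 and 0.220.

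**Figure D2:**
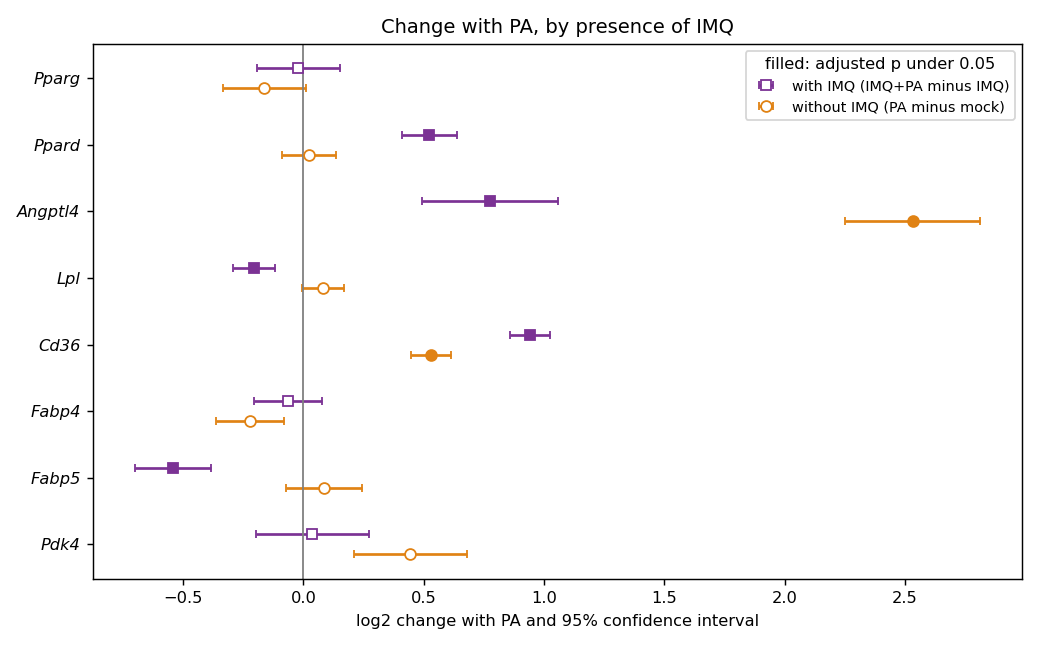
Log2 change with PA for each gene of the set, in cells with IMQ (IMQ with PA minus IMQ) and in cells without it (PA minus mock); bars are 95% confidence intervals and filled markers are genes called at an adjusted p under 0.05. Angptl4 rose by 0.77 with IMQ and by 2.53 without it, Cd36 by 0.94 and 0.53, and Ppard by 0.52 with IMQ, against 0.02 without it.

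Among the receptors, Pparg fell with IMQ and did not pass the test with PA. Its level was 5.42, 5.16, 5.26 and 5.17 on the arrays of IMQ with PA, and 5.29, 5.36, 5.28 and 5.16 on those of IMQ alone. It was 7.72, 7.87, 7.94 and 7.80 with PA, and 7.96, 7.78, 8.12 and 8.11 in mock cells. All 8 arrays with IMQ lay close above the dim level and far below all 8 arrays without it, while PA and mock overlapped, as did the groups with IMQ. Pparg fell by 2.72 ± 0.08 with IMQ relative to mock (limma adjusted p = 3.70e-13) and changed by -2.58 ± 0.08 with IMQ and PA relative to PA (adjusted p = 5.64e-13). The change with PA was -0.16 without IMQ, with a 95% confidence interval from -0.34 to 0.01 and an adjusted p of 0.379. With IMQ it was -0.02, with an interval from -0.19 to 0.15 and an adjusted p of 0.900. The interaction of 0.14 ± 0.12 did not pass the test (adjusted p = 0.501).

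Ppard behaved otherwise. Its values with IMQ and PA were 8.53, 8.52, 8.55 and 8.48, and with IMQ alone 8.11, 7.88, 8.01 and 7.98. They ran from 7.97 to 8.09 with PA, and were 8.04, 7.91, 8.03 and 8.03 in mock cells. The combined treatment stood above every other array, and the remaining 3 groups overlapped. Neither PA (0.02 ± 0.05, adjusted p = 0.893) nor IMQ (-0.01 ± 0.05, adjusted p = 0.926) passed the test alone, and PA raised Ppard 1.44-fold in the presence of IMQ (0.52 ± 0.05, adjusted p = 1.97e-06). The interaction was 0.50 ± 0.07 (adjusted p = 0.000233). The gene's other probe set carries a second symbol and was left out.

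Receptor partners and coregulators give the setting of these receptors, and 13 of 15 listed genes were measured, 3 of them dim in all groups. None passed the test with PA alone, where 1.49% of all genes were called. With IMQ 4 rose and 4 fell, against 17.0% and 17.9% of all genes, and Ppargc1b, a coactivator of PPARs, fell by 1.15 ± 0.11 (adjusted p = 2.55e-07). Rxra, one of the retinoid X receptors that dimerise with PPARs, fell by 1.04 ± 0.06 (adjusted p = 6.30e-10). Rxrb, another of them, did not pass the test with IMQ (-0.18 ± 0.08, adjusted p = 0.119). Nrip1, a corepressor of nuclear receptors, rose by 0.36 ± 0.05 (adjusted p = 2.83e-05). With IMQ and PA relative to IMQ 4 rose and none fell, against 11.6% and 9.44% of all genes. Those that rose were Ppargc1b (0.66 ± 0.11, adjusted p = 0.000271), Rxra (0.18 ± 0.06, adjusted p = 0.0455), Nrip1 and Ppargc1a. The means of Ppargc1a, 3.71 with IMQ and PA and 3.22 with IMQ, both lay below the dim level. The list's median change was -0.02 with IMQ and -0.04 for PA in the presence of IMQ, against 0.01 and -0.02 over all genes. Ppara, the receptor of fatty acid oxidation in liver, was dim in every group.

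Angptl4 was the gene of the set with the largest change with PA in cells without IMQ, while in cells with IMQ that of Cd36 was larger. It stood at 5.86, 5.83, 6.32 and 5.69 with IMQ and PA, and at 5.46, 4.95, 4.90 and 5.30 with IMQ. It stood at 8.74, 8.86, 8.84 and 8.77 with PA, and at 6.23, 6.15, 6.32 and 6.39 in mock cells. The PA arrays lay far above all others, the IMQ arrays lay lowest, with 1 of them below the dim level, and the combined treatment overlapped mock. PA raised Angptl4 by 2.53 ± 0.13 without IMQ (adjusted p = 4.48e-08) and 1.71-fold, by 0.77 ± 0.13, with IMQ (adjusted p = 0.000402). Without the arrays with high Il6 the rise with PA alone was 2.41 ± 0.27 (adjusted p = 0.0130). IMQ lowered it 2.17-fold relative to mock (-1.12 ± 0.13, adjusted p = 3.61e-06) and 7.34-fold in the presence of PA (-2.88 ± 0.13, adjusted p = 3.87e-11). The interaction of -1.76 ± 0.19 (adjusted p = 7.72e-06) was the 10th lowest of all genes. In the order PA, mock, IMQ with PA and IMQ, the neighbours mock and IMQ with PA did not pass the test (-0.35 ± 0.13 for IMQ with PA minus mock, adjusted p = 0.0532). Without array 3 of IMQ with PA that difference was -0.48 with an adjusted p of 0.00405.

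Lpl, the secreted lipase that frees fatty acids from lipoproteins and the enzyme that ANGPTL4 inhibits, followed IMQ. Its values were 10.74, 10.83, 10.79 and 10.78 with IMQ and PA, and 10.97, 10.99, 11.05 and 10.95 with IMQ. They were 12.25, 12.30, 12.30 and 12.27 with PA, and 12.17, 12.18, 12.20 and 12.25 in mock cells. Arrays with IMQ lay below all arrays without it, the combined treatment lay lowest, and the PA and mock arrays met only at 12.25. IMQ lowered Lpl 2.31-fold relative to mock (-1.21 ± 0.04, adjusted p = 1.15e-12) and 2.82-fold in the presence of PA (-1.50 ± 0.04, adjusted p = 1.43e-13). PA lowered it 1.15-fold in the presence of IMQ (-0.21 ± 0.04, adjusted p = 0.00137), while the change with PA alone, 0.08 ± 0.04, did not pass the test (adjusted p = 0.378). The interaction was -0.29 ± 0.06 (adjusted p = 0.00269).

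Of 20 other genes of the lipoprotein lipase pathway 17 were measured, 4 of them dim. With PA alone 1 passed, Pnpla2, the lipase of lipid droplets (0.41 ± 0.05, adjusted p = 0.000181), against 1.49% of all genes. Without the arrays with high Il6 its change was 0.38 and was not called (adjusted p = 0.293). With IMQ 4 rose and 6 fell, against 17.0% and 17.9% of all genes. The largest falls were those of Mgll, monoacylglycerol lipase (-3.25 ± 0.08, adjusted p = 8.41e-14), Lipa, the lysosomal acid lipase (-1.43 ± 0.04, adjusted p = 1.51e-13), and Apoc2, the protein that activates lipoprotein lipase (-1.25 ± 0.06, adjusted p = 8.10e-11). PA in the presence of IMQ lowered Apoc2 further, with a change of -0.76 ± 0.06 (adjusted p = 1.21e-07), and raised Mgll by 0.50 ± 0.08 (adjusted p = 0.000271). In that comparison 4 genes of the list rose and 2 fell, against 11.6% and 9.44% of all genes. The list's medians lay close to those of all genes, at -0.04 with PA, 0.02 with IMQ and -0.07 for PA in the presence of IMQ.

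Cd36 was the one gene of the set that PA raised by more in the presence of IMQ than without it and that IMQ lowered. Its values were 10.89, 10.85, 10.90 and 10.97 with IMQ and PA, and 10.01, 9.97, 9.92 and 9.94 with IMQ. They were 11.58, 11.59, 11.60 and 11.59 with PA, and 11.07, 11.07, 11.06 and 11.05 in mock cells. No 2 groups overlapped, and the order was PA, mock, IMQ with PA and IMQ. IMQ lowered it 2.14-fold relative to mock (-1.10 ± 0.04, adjusted p = 2.23e-12) and 1.61-fold in the presence of PA (-0.69 ± 0.04, adjusted p = 5.06e-10). PA raised it by 0.53 ± 0.04 without IMQ (adjusted p = 2.35e-06) and 1.92-fold, by 0.94 ± 0.04, with it (adjusted p = 1.02e-10), with an interaction of 0.41 ± 0.06 (adjusted p = 8.51e-05). With IMQ and PA it was lower than in mock cells by a change of -0.16 ± 0.04 (adjusted p = 0.00402). Without the arrays with high Il6 the rise with PA alone was again 0.53, now with a standard error of 0.08 and an adjusted p of 0.0701, and the difference between IMQ with PA and mock was -0.15 (adjusted p = 0.202).

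The carriers Fabp4 and Fabp5, small proteins that bind fatty acids inside the cell, both fell with IMQ and differed in their response to PA. Fabp4 was at 7.56, 7.58, 7.75 and 7.84 with IMQ and PA, and at 7.81, 7.86, 7.70 and 7.62 with IMQ. It was at 11.01, 11.05, 10.99 and 10.95 with PA, and at 11.27, 11.25, 11.18 and 11.19 in mock cells. The groups with IMQ overlapped each other and lay far below the others, and all PA arrays lay just below all mock arrays. Fabp4 fell by 3.47 ± 0.07 with IMQ relative to mock (adjusted p = 1.25e-14) and 9.98-fold with IMQ and PA relative to PA (-3.32 ± 0.07, adjusted p = 2.02e-14). The change with PA was -0.22 ± 0.07 without IMQ (adjusted p = 0.134) and -0.06 ± 0.07 with it (adjusted p = 0.565), and neither passed the test.

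Fabp5 was at 9.31, 9.61, 9.57 and 9.58 with IMQ and PA, and at 9.96, 10.10, 10.09 and 10.08 with IMQ. It was at 11.63, 11.46, 11.42 and 11.40 with PA, and at 11.39, 11.42, 11.27 and 11.49 in mock cells. The combined treatment lay below IMQ alone without overlap, both lay below the groups without IMQ, and PA overlapped mock. IMQ lowered Fabp5 2.52-fold relative to mock (-1.33 ± 0.07, adjusted p = 3.87e-10) and 3.89-fold in the presence of PA (-1.96 ± 0.07, adjusted p = 3.59e-12). PA lowered it 1.46-fold in the presence of IMQ (-0.54 ± 0.07, adjusted p = 4.58e-05), and the change with PA alone, 0.09 ± 0.07, did not pass the test (adjusted p = 0.645). The interaction was -0.63 ± 0.10 (adjusted p = 0.000603), whereas that of Fabp4 was 0.16 ± 0.09 (adjusted p = 0.336).

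**Figure D3:**
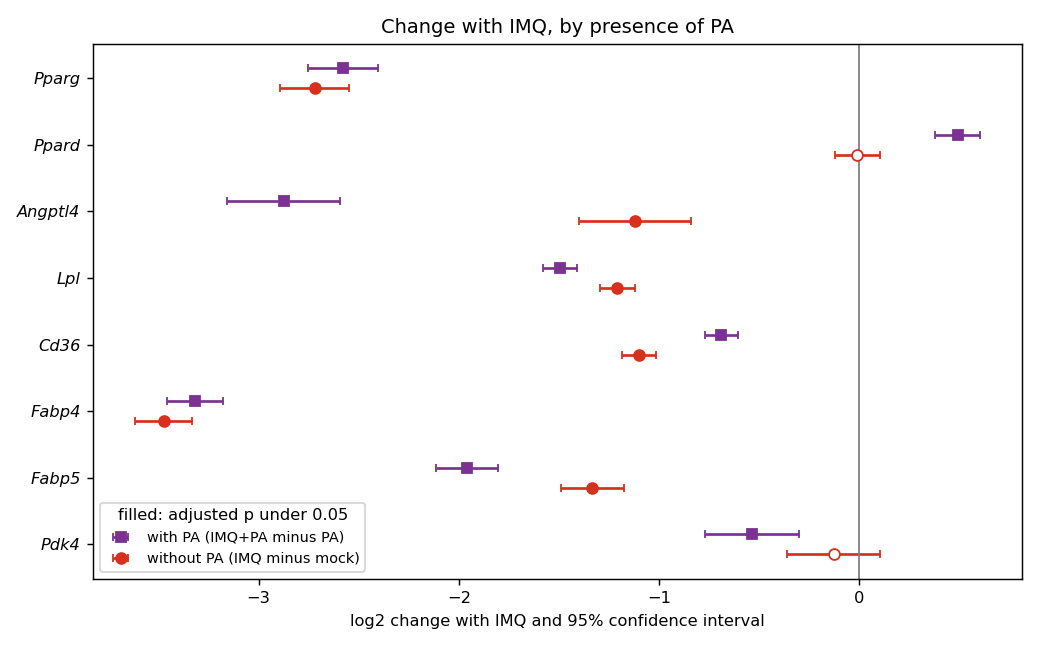
Log2 change with IMQ for each gene of the set, in cells with PA (IMQ with PA minus PA) and in cells without it (IMQ minus mock); bars are 95% confidence intervals and filled markers are genes called at an adjusted p under 0.05. Fabp4 changed by -3.32 and -3.47 and Pparg by -2.58 and -2.72, while Ppard changed by 0.49 with PA, against -0.01 without it.

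Fabp5 had 4 probe sets and Lpl 2, and these were also fitted as separate features, a step chosen after seeing the data. All fell with IMQ, with changes from -1.33 to -1.85 for Fabp5 and of -1.21 and -1.82 for Lpl. All were also lower with IMQ and PA than with IMQ alone, from -0.34 to -0.57 for Fabp5 and at -0.21 and -0.25 for Lpl. The probe sets disagreed on the interaction. It was called for 3 probe sets of Fabp5 (-0.41 to -0.63) and was -0.08 for the dimmest one (adjusted p = 0.849). For Lpl it was -0.29 for the brighter one (adjusted p = 0.00309) and -0.03 for the dimmer one (adjusted p = 0.906). In the dimmer ones the change with PA alone was -0.47 ± 0.13 for Fabp5 (adjusted p = 0.101) and -0.22 ± 0.08 for Lpl (adjusted p = 0.220), and neither passed the test. Fabp5 has near-identical copies in the mouse genome, and whether its probe sets read them was not tested.

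**Figure D4:**
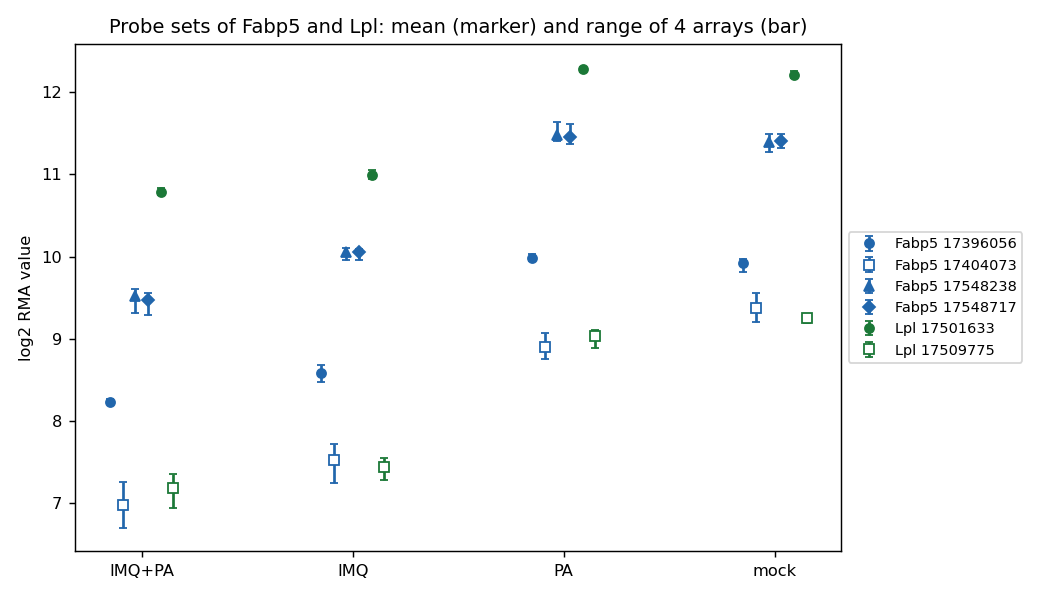
Log2 signal of each probe set of Fabp5 and Lpl in the groups IMQ with PA, IMQ, PA and mock from left to right; markers are means of 4 arrays, bars span the lowest to the highest array, and open squares mark the dimmest probe set of each gene. Every probe set is lower with IMQ, and in the dimmest ones the PA mean (8.90 for Fabp5 and 9.03 for Lpl) lies below the mock mean (9.37 and 9.25), a difference that did not pass the test.

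Relatives of these uptake genes moved in both directions. Of 20 listed genes of fatty acid uptake and activation 19 were measured, 7 of them dim. With PA 2 rose and none fell, namely Slc27a1, a fatty acid transport protein (0.54 ± 0.05, adjusted p = 7.90e-05), and Cav1, the caveolar protein caveolin (0.28 ± 0.05, adjusted p = 0.0148), against 1.05% of all genes called higher. Without the arrays with high Il6 their changes were 0.51 and 0.34, and neither was called (adjusted p = 0.230 and 0.293). With IMQ 5 rose and 6 fell, against 17.0% and 17.9% of all genes. Acsl5, an acyl-CoA synthetase and a relative of Acsl1, rose by 1.26 ± 0.04 (adjusted p = 7.77e-13), and Dbi, which binds acyl-CoA, changed by -0.99 ± 0.06 (adjusted p = 9.76e-10). Slc27a6, another transport protein, was lower by at least the fitted change of -2.87, since its mean with IMQ, 4.15, was below the dim level. PA in the presence of IMQ moved Acsl5 and Dbi the other way, with changes of -0.74 ± 0.04 for Acsl5 (adjusted p = 2.24e-09) and 0.62 ± 0.06 for Dbi (adjusted p = 9.33e-07). In that comparison 5 genes of the list rose and 3 fell, against 11.6% and 9.44% of all genes. The list's medians were 0.02 with PA, 0.05 with IMQ and -0.03 for PA in the presence of IMQ.

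Pdk4, a kinase that switches off pyruvate dehydrogenase and so spares glucose, was dim in all 4 groups. It stood at 4.24, 4.48, 4.43 and 4.08 with IMQ and PA, and at 4.30, 4.28, 4.16 and 4.33 with IMQ. It stood at 4.94, 4.57, 4.69 and 5.16 with PA, and at 4.45, 4.43, 4.33 and 4.37 in mock cells. The PA arrays lay above all others, at levels too low to give a fold change. The difference between PA and mock, 0.44 ± 0.11, did not pass the test (adjusted p = 0.0611), and the difference between IMQ with PA and PA, -0.53 ± 0.11, did (adjusted p = 0.000930). The first one passed without PA array 2 (0.53, adjusted p = 0.0266). Of 11 relatives of Pdk4 and Ucp2, all were measured and 3 were dim. None of the 11 passed with PA, where 1.49% of all genes were called. With IMQ 1 rose and 4 fell, against 17.0% and 17.9% of all genes. The falls included Pdp1, a phosphatase that opposes the kinases (-1.26 ± 0.07, adjusted p = 5.53e-10), and Pdk2, another kinase of the family (-1.08 ± 0.05, adjusted p = 2.05e-11).

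Other known PPAR targets, mostly genes of fatty acid oxidation and lipid droplets, included many that rose with PA. Of 26 listed genes 24 were measured, 3 of them dim. With PA 10 rose and none fell, against 1.05% of all genes called higher, and the median change was 0.21, against 0.01 over all genes. Cpt1a, the gate of fatty acid entry into mitochondria, rose by 1.08 ± 0.05 (adjusted p = 4.35e-08), Plin2, which coats lipid droplets, by 1.03 ± 0.05 (adjusted p = 3.13e-08), and Hilpda, an inhibitor of the droplet lipase, by 0.82 ± 0.06 (adjusted p = 1.72e-06). These ranked 3, 4 and 12 among all rises with PA. Without the arrays with high Il6 the same 3 genes were called and none was lower, at changes of 0.98, 0.96 and 0.90 and an adjusted p of 0.0103 each, and all 10 kept their sign. With IMQ 11 fell and 1 rose, against 17.9% and 17.0% of all genes, and the median was -0.25, against 0.01 over all genes.

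PA in the presence of IMQ raised 13 of these 24 targets and lowered none, against 11.6% of all genes called higher, with a median of 0.20, against -0.02 over all genes. Cpt1a rose by 0.98 ± 0.05 (adjusted p = 2.35e-09) and Plin2 by 0.85 ± 0.05 (adjusted p = 2.86e-09), and their interactions, -0.10 ± 0.08 and -0.18 ± 0.07, did not pass the test (adjusted p = 0.466 and 0.114). Hilpda rose by 2.44 ± 0.06 (adjusted p = 2.54e-13), more than without IMQ, with an interaction of 1.62 ± 0.08 (adjusted p = 3.48e-09). Hilpda was also the one target of the list that IMQ raised, by 1.14 ± 0.06 (adjusted p = 1.23e-10), and it averaged 10.64 ± 0.06 with IMQ and PA, 8.20 ± 0.05 with IMQ, 7.88 ± 0.08 with PA and 7.05 ± 0.10 in mock cells (SD, n = 4 each). The interaction was called for 5 of the 24, against 13.6% of all genes, 3 of them negative and 2 positive. One of the negative ones was Acot1, an acyl-CoA thioesterase, at -0.73, but its means of 4.68 with IMQ and PA and 4.78 with IMQ were both below the dim level, so a PA change with IMQ could not be read. Without the arrays with high Il6 the interaction of Hilpda was 1.54, and it alone kept its call. The interactions of Acot1 and Acaa2, an enzyme of fatty acid oxidation, were -0.70 and 0.28, against -0.73 and 0.27 with all arrays. Those of Ech1 and Hadha were -0.26 and -0.21, against -0.38 and -0.20 with all arrays.

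**Figure D5:**
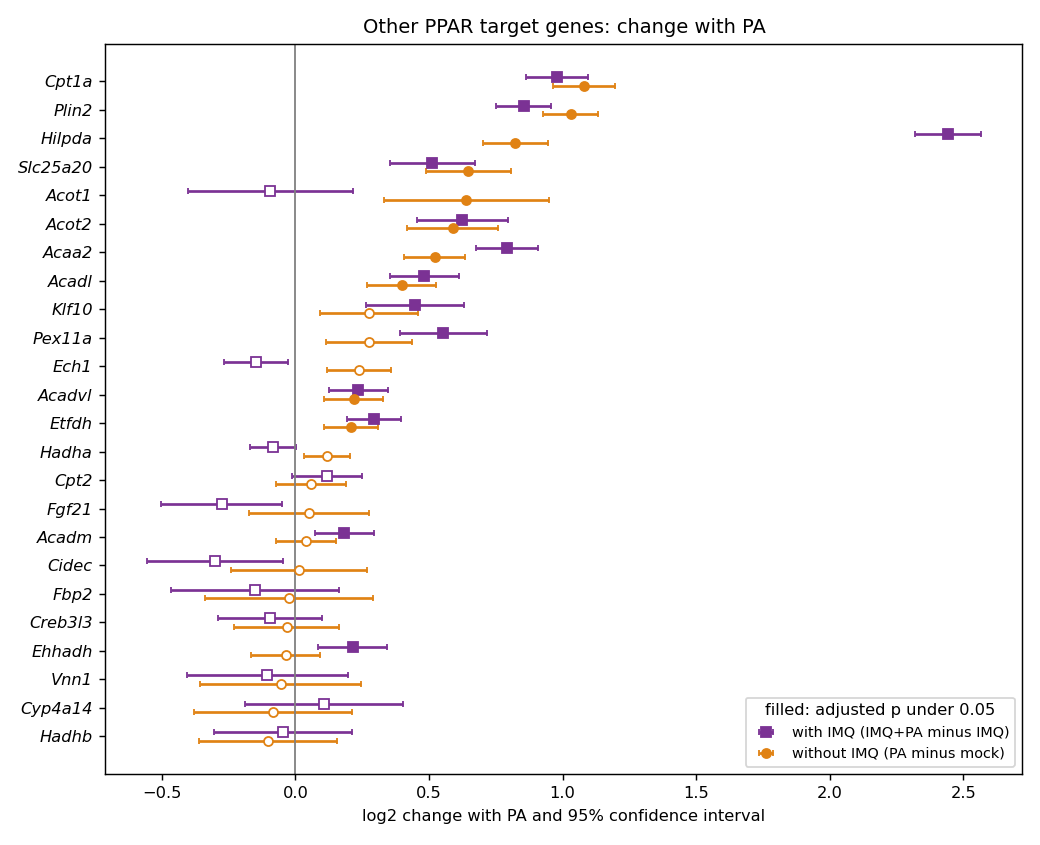
Log2 change with PA of the 24 measured targets outside the set, in cells with IMQ (IMQ with PA minus IMQ) and in cells without it (PA minus mock); bars are 95% confidence intervals and filled markers are genes called at an adjusted p under 0.05. The filled markers, 13 with IMQ and 10 without it, all lie above 0, and Hilpda stands out with 2.44, against 0.82.

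The genes whose 4 group means were most like those of a gene of the set were found by the Euclidean distance between group means after each gene's own mean was subtracted, over 13515 genes that were not dim throughout. Nearest to Pparg were Pros1, which encodes the anticoagulant protein S, at a distance of 0.12, and Rab3il1 at 0.18. Nearest to Cd36 were Emp2 at 0.16 and Pde3b, a phosphodiesterase, at 0.25. Those nearest to Angptl4, Cd300a at 1.30 and the fatty acid oxidation gene Cpt1a at 1.31, were several times farther away. The group means were not scaled, so a gene with a pattern of like shape but smaller changes also counts as far. Fabp4 had Slc36a2 at 0.23 and Daglb at 0.32. The distances were smaller for Fabp5 (Stard9 at 0.09 and Ect2 at 0.10), Lpl (E230016K23Rik at 0.04 and Ap1s2 at 0.05) and Ppard (Arpin and Usp40, both at 0.02). These distances are over 4 group means and describe likeness only.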

How the data were processed

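Total RNA (200 ng per sample) was hybridised to 1-colour Affymetrix arrays after whole-transcript amplification, per the labels' protocols. The authors deposited log2 values, and RMA and affy are named, without versions, in the submitters' processing notes. RMA subtracts background, applies quantile normalisation and combines the probes of each probe set. A genome build was not given in the sources used here. All 41345 probe sets had a value on all 16 arrays, between 0.628 and 13.5. Arrays have no read depth, so their number limits the precision. Pearson's r between arrays of a group was 0.994 to 0.996, and no arrays were identical.

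Of the probe sets 23521 carry 1 gene symbol, 1814 several and 16010 none listed, and only the first kind was used. Of these, 23328 were found by gene number in a RefSeq table of GRCm38.p6, which changed 0 symbols. For 1082 genes the brightest of several probe sets was taken, which left 22180 genes, 8664 of them dim in all groups.

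A model of 4 group means was fitted with limma 3.58.1 in R 4.3.3 (lmFit and eBayes, two-sided, 12 residual and 2.96 prior degrees of freedom) with no covariate and no filter, after the steps were tested on simulated data. A fold is 2 to the power of a difference of log2 means. The genes of the set, the gene lists and the arrays left out were chosen with earlier results of these data known. The rule for names took, from each list, up to 3 called genes that moved in its main direction and 1 that moved against it, the largest changes first, and the 2 genes nearest to each gene of the set; some of the genes it admits are left unnamed. Ppara, Rxrb, Retnla, Clec10a, and Nrip1 in the presence of IMQ were chosen after their values were seen. So were Acaa2, Ech1 and Hadha in the interaction without the arrays with high Il6. The single dendritic cell and macrophage markers, the values without a call of Cpt1a and Plin2, and the Il6 levels were also chosen then. Alternatives changed the normalisation, scaling, filter, variance model, arrays and probe sets, and used the replicate number as a block. Same-numbered arrays of different groups deviated from their group means with r from -0.118 to 0.173, and 4 of 24 pairs were over 0.1. These were mock and IMQ arrays 2 (0.146) and 3 (0.173), and array 3 of IMQ with PA against mock (0.114) and IMQ (0.115). Pairs with different numbers were not computed, so this cannot decide whether the numbers pair arrays. The main fit did not pair them. Of the measured markers of other cells, those dim in all groups were 4 of 8 for neutrophils, 4 of 6 for mast cells and basophils, 3 of 6 for endothelial cells, 5 of 5 for lymphocytes and 1 of 1 for erythroid cells.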

Additional observations from a re-analysis of the deposited data

Results flagged for a closer look

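The change with PA differed between cells with and without IMQ for 5 of the 8 measured genes, by the interaction term in limma. It was -1.76 for Angptl4 (adjusted p = 7.72e-06), -0.63 for Fabp5 (adjusted p = 0.000603) and -0.29 for Lpl (adjusted p = 0.00269). It was 0.41 for Cd36 (adjusted p = 8.51e-05) and 0.50 for Ppard (adjusted p = 0.000233). The terms of Fabp5 and Lpl were not called in the dimmest probe set of either gene.

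In 3 of the 32 combinations of gene and group, 1 array stood far from the other 3 by Dixon's test, which by chance picks out about 1 in 20 groups. Fabp5 was lower in array 1 of IMQ with PA, at 9.31, and in array 1 of IMQ alone, at 9.96, than in the other arrays of its group. Ppard was lower in mock array 2, at 7.91. Leaving out any of these arrays changed no call for its gene.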

How the results depend on the processing

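Each comparison was repeated under the alternatives, which each changed 1 choice, except that the variance trend and robust moderation were set together. For PA versus mock, where 331 genes were called, the count was 539 with dim genes left out, 737 with a variance trend and robust moderation, 150 with only the compared groups in the fit and 15 without the 5 mock and PA arrays with high Il6, where few arrays are left. The members called, 2, became 4 with the variance trend and robust moderation (Fabp4 lower and Pdk4 higher in addition, adjusted p = 0.0220 and 0.0315) and 1 without the arrays with high Il6. Without those arrays the interaction was called for 1200 genes and 3 members, against 3015 and 5. With single replicates left out, the genes called ranged from 170 to 346 for PA versus mock (201 without mock array 1, 170 without mock array 2, 220 without PA array 3 and 192 without PA array 4), with 2 to 3 members. They ranged from 7199 to 7662 for IMQ versus mock (6 members throughout), from 3969 to 4647 for IMQ with PA versus IMQ (5 throughout), from 7401 to 7556 for IMQ with PA versus PA (8 throughout), from 7597 to 7836 for IMQ with PA versus mock (6 to 7) and from 2600 to 2897 for the interaction (5 to 6). With the replicate number as a block, 259 genes were called for PA versus mock and 2942 for the interaction, and no member's call changed. Of 370 values of single members under the other alternatives 359 kept direction and call, 5 lost and 6 gained a call and none reversed; of 448 with a replicate left out 445 kept both and 3 gained a call. Gains besides those named were Pdk4 for PA versus mock with quantile normalisation repeated (0.48, adjusted p = 0.0467), Pdk4 in the interaction without PA array 2 (-0.49, adjusted p = 0.0378) and Angptl4 for IMQ with PA versus mock with quantile normalisation repeated, dim genes left out or the variance trend and robust moderation (adjusted p = 0.0424, 0.0288 and 0.0284). With the mean of a gene's probe sets the Lpl interaction was -0.16 (adjusted p = 0.205). The causes were not tested. Pdk4 has no value where dim genes are left out, and the fit of only the compared groups was not run for the interaction, which needs all of them. Signals near the dim level, as those of Pdk4 and of Pparg and Angptl4 with IMQ, limit the size of change that can be read.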

Other observations

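Of 12 listed genes linked in the literature on macrophages to IL-4 and PPARG, 11 were measured, and 3 of these were dim in all groups. With PA alone 0 of the 11 passed the test (limma), against 1.49% of all genes. The 11 genes moved in both directions with IMQ, where 3 rose and 6 fell, against 17.0% and 17.9% of all genes. Their median was -0.31, against 0.01 over all genes. The falls of Retnla and Clec10a lay between means that were both below the dim level, so their size could not be read. The mannose receptor gene Mrc1 fell by 3.62 ± 0.06 with IMQ (adjusted p = 7.45e-15), the ninth largest fall of all genes, and Klf4, a transcription factor, changed by -0.83 ± 0.07 (adjusted p = 7.77e-08). Arg1, which encodes arginase, rose by 1.67 ± 0.09 (adjusted p = 3.01e-10). PA in the presence of IMQ raised 4 of the 11 and lowered 1, against 11.6% and 9.44% of all genes. Those raised included Tgm2, a transglutaminase (1.07 ± 0.05, adjusted p = 2.69e-10), Mrc1 (1.05 ± 0.06, adjusted p = 3.31e-09) and Arg1 (0.95 ± 0.09, adjusted p = 9.75e-07). The gene lowered was Stat6, the transcription factor downstream of IL-4 (-0.21 ± 0.04, adjusted p = 0.00117). Mrc1 averaged 7.62 ± 0.12 with IMQ and PA, 6.56 ± 0.10 with IMQ, 10.23 ± 0.03 with PA and 10.18 ± 0.03 in mock cells (SD, n = 4 each), so with IMQ and PA it stayed below both groups without IMQ. All 10 inflammatory genes of the TLR response rose with IMQ relative to mock, against 17.0% of all genes called higher, with a median of 4.38, and of 5.99 without the 5 mock and PA arrays with high Il6.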
